A study of Mus musculus with 10 samples.

Results

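The genes of oxidative phosphorylation (OXPHOS) were examined in cells of the Emx1 lineage from embryonic neocortex, with and without Cdkn1c. Members were the rows of the count tables whose symbol names a subunit of the mitochondrially encoded set (mt-Nd, mt-Co, mt-Atp, mt-Cytb) or of the nuclear families Nduf, Sdha to Sdhd, Uqcr, Cox4 to Cox8 and Atp5. The rule used the symbols alone and no measured value. It found 119 genes among 53379, of which 13 are encoded in mitochondrial DNA (mtDNA) and 106 in the nucleus. Of the 119 genes, 92 had a mean of at least 10 reads per library and could be tested.

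OXPHOS is the last stage of cellular respiration. Complexes I and II pass electrons from NADH and succinate to ubiquinone, complex III passes them on to cytochrome c, complex IV hands them to oxygen, and complex V uses the resulting proton gradient to make ATP. Complex II is encoded by nuclear genes alone, whereas complexes I, III, IV and V combine nuclear subunits with subunits made inside the mitochondrion from mtDNA. Neural progenitors are known to rely much on glycolysis, and respiration gains weight as neurons differentiate.

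RNA-seq was made by Smart-Seq2 from 400 sorted cells per library, with 1 embryo per library, at E16. The cKO-Cdkn1c-MADM-7 group had 3 embryos, here cKO 1 to cKO 3, in which both copies of chromosome 7 (GT,Cdkn1c and TG,Cdkn1c) held a Cdkn1c allele that Cre deletes. The control MADM-7 group (GT/TG) had 7 embryos, here control 1 to control 7. Embryos of both groups were Emx1 Cre/+. All embryos carried the MADM (Mosaic Analysis with Double Markers) cassettes on chromosome 7 and Emx1-Cre, so the controls share both. Emx1-Cre drives recombination in dorsal forebrain progenitors and their descendants, and the sorted cells were green, red and yellow MADM-labeled cells collected into the same sample. The labels give CD1 as the background, the protocol a mix of C57BL/6J and CD1.

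Between 2417184 and 2998916 reads per cKO library and between 1738220 and 3362487 per control library were counted on genes. Cdkn1c, the deleted gene, was counted 32, 10 and 18 times in cKO against 116 to 369 times in controls, with a log2 fold change of −3.66 ± 0.31 (SE) and an adjusted p of 3.68e-06. Markers of projection neurons were present in every library, and their summed level was lower in cKO (2154 to 2250 CPM) than in controls (3299 to 4070 CPM), with 3 of 7 markers called lower. The 4 markers of Cajal-Retzius cells were all called higher, with summed levels of 522 to 622 CPM against 16.3 to 159 CPM. Markers of radial glia and intermediate progenitors gave 0 calls among 7 and 4 genes, and of 6 interneuron markers Dlx2 alone was called, higher in cKO. Summed erythroid markers were highest in cKO 1 (2298 CPM), control 5 (1637 CPM) and control 2 (1362 CPM), and microglial markers in cKO 3 (31.8 CPM). The part of these differences in the OXPHOS values was not tested. In libraries made from many cells, fewer cells of a type and less RNA per cell cannot be told apart. CPM values here are read counts scaled to a common library total with TMM factors.

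No OXPHOS gene was called higher or lower in cKO: 0 of 92 members passed an adjusted p of 0.05, where 3.15% of all 11551 genes tested did (2.27% higher and 0.883% lower). DESeq2 called 0 members as well. At an unadjusted p under 0.05, edgeR gave 8 members, all higher in cKO. That is 8.70% of the members, against 16.4% of all genes in either direction and 9.25% in the higher direction. DESeq2 gave 9. The members were measured more tightly than most genes, with a median standard error of 0.14 on the log2 scale against 0.27 over all genes. The 95% interval of the fold change lay within 2-fold in either direction for 91 of 92 members, and within 1.5-fold for 73. The exception at 2-fold was Atp5s, coupling factor B of complex V, a gene of 8.75 to 20.4 CPM with a log2 fold change of 0.50 ± 0.29.

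The log2 fold changes of the members lay between −0.22 and 0.50, and 69 of 92 (75.0%) were above 0, against 51.3% of all genes tested. Their median was 0.11, against 0.01 over all genes. Genes in these data share libraries and are not independent, so this count describes the 10 libraries. It was smaller without cKO 3: then 57 of 92 members lay above 0 with a median of 0.04, and without cKO 1 there were 75 with a median of 0.18. Reads outside genes were 15.5%, 12.8% and 8.64% of the reads in cKO 1, 2 and 3 and 5.47% to 16.7% in controls. Among libraries with at most 10% of such reads (cKO 3 against controls 1, 2, 6 and 7), 81 of 92 members lay above 0 with a median of 0.20, and among the others 59 did with a median of 0.07. The first set holds cKO 3 as its only cKO library, so the share of such reads and that library cannot be told apart there. OXPHOS genes are short, with a median exonic length of 1578 bases against 4608 bases over all genes, and of the 1437 tested genes under 2000 bases that are no members, 60.6% lay above 0, with a median of 0.09. The 47 nuclear subunits under 2000 bases had a median of 0.17 and the 29 longer ones a median of 0.07. With an offset for gene length in the fit, 60 of 92 members lay above 0 and their median was 0.06. What part length has in the members' values was not tested beyond this.

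The medians of the nuclear complexes depended on single libraries in the same way. Without cKO 3 they were 0.034 for complex I, 0.15 for II, 0.11 for III, 0.046 for IV and 0.033 for V, against 0.11, 0.20, 0.19, 0.11 and 0.15 with all libraries. Without cKO 1 those of complexes IV and V were 0.18 and 0.25, and without control 1 that of complex I was 0.066. All stayed above 0 with any 1 library left out.

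**Figure D1:**
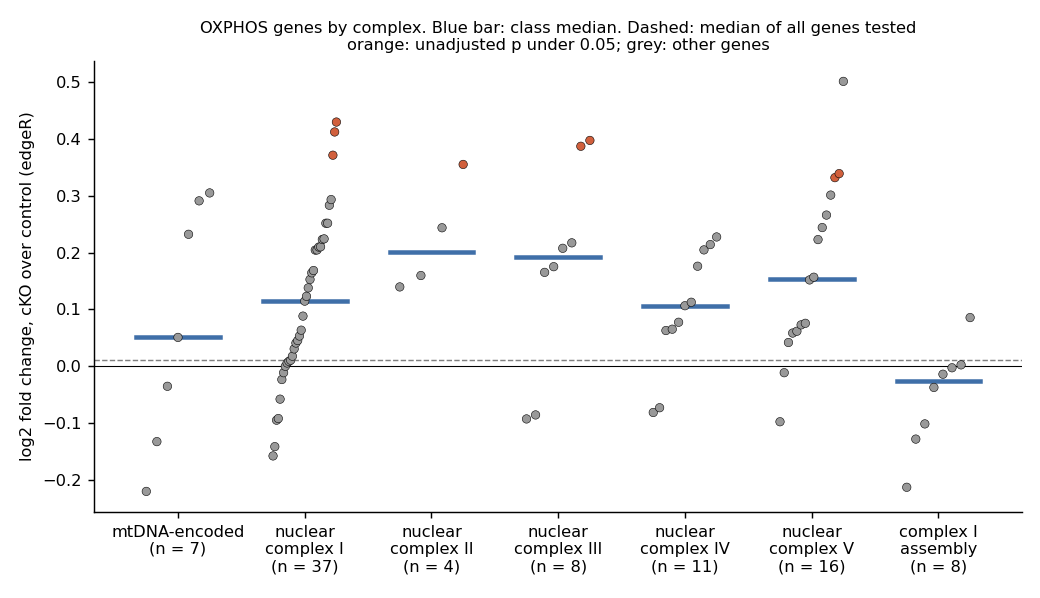
Log2 fold change (cKO over control, edgeR) of each tested protein-coding member, 1 point per gene, by complex and genome of origin; blue bars are class medians, the dashed line the median of all genes tested, and orange points have an unadjusted p under 0.05. The orange points lie between 0.33 and 0.43 and belong to nuclear genes of complexes I, II, III and V, while the 7 mtDNA-encoded genes spread from −0.22 to 0.31.

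The mtDNA-encoded genes divided first by whether they could be counted at all. Of the 13, the genes mt-Nd1, mt-Nd2, mt-Nd4, mt-Nd5 and mt-Nd6 of complex I, mt-Cytb of complex III and mt-Co1 of complex IV had a mean of 749.7 (mt-Nd6) to 36500 (mt-Cytb) reads per library. The other 6 had almost none. Mean counts were 0.4 for mt-Co2, 3.6 for mt-Co3, 1.2 for mt-Atp6, 0.3 for mt-Atp8, 0.4 for mt-Nd3 and 0 for mt-Nd4l. These 6 genes are neighbours on the mitochondrial chromosome, from mt-Co2 to mt-Nd4l, between the well counted mt-Co1 and mt-Nd4. In mammals the RNAs of this strand of mtDNA are known to be cut from the same long precursor.

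The sequences of the 13 genes were compared with all other annotated transcripts in windows of 50 bases. Exact matches elsewhere covered 100% of the windows of mt-Co2, 99.9% of mt-Co3, 99.5% of mt-Atp6, 98.8% of mt-Nd4l and 98.0% of mt-Nd3. The share was 62.2% in mt-Nd4, 51.1% in mt-Co1 and at most 8.19% in mt-Nd1, mt-Nd2, mt-Nd5, mt-Nd6 and mt-Cytb. The closest copies of mt-Co2, mt-Co3, mt-Atp6, mt-Nd3 and mt-Nd4l lay in a block of annotated pseudogenes on chromosome 1, between positions 24611535 (the start of Gm28439) and 24616197 (the end of Gm29216) of GRCm38, where mtDNA sequence stands in the nuclear genome. The authors kept only reads with a single alignment, and a read that fits such a copy and its mitochondrial original equally well has more than 1. For mt-Atp8, with 0.3 reads on average, no annotated copy of at least 100 bases was found and 0% of the windows were shared. Only annotated transcripts were searched. The chromosome 1 copies of its neighbours mt-Atp6 (Gm10925) and mt-Co2 (Gm28661) end at 24614651 and start at 24614885. An unannotated copy of mt-Atp8 between them would not have been found. How much of the mtDNA-encoded RNA was lost to reads with more than 1 alignment was not tested.

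The first bases of mt-Co2 and mt-Nd3 are shown beside their nuclear copies because they lie in the uncounted stretch, and those of mt-Cytb because it was counted despite having a copy. Sequences are from the GENCODE transcripts of GRCm38, 5′ to 3′ on the strand of the gene, with capitals at the letters that differ within a pair. The stretches are chrM:7013-7112 of mt-Co2, chrM:9459-9558 of mt-Nd3 and chrM:14146-14245 of mt-Cytb, all on the plus strand.
mt-Co2: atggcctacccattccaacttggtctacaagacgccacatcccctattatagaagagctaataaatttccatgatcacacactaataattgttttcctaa
Gm28661: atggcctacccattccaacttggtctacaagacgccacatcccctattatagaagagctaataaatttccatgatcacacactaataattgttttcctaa
mt-Nd3: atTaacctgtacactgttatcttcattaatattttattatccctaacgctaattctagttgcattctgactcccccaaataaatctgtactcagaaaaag
Gm28438: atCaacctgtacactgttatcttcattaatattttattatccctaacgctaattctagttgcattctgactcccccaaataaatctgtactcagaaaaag
mt-Cytb: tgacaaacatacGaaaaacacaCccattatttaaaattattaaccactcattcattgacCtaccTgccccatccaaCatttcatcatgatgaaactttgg
Gm11410: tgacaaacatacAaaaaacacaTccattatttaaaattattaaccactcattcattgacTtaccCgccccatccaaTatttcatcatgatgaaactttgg

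The mt-Co2 pair had 0 differences over its aligned 681 bases, and the mt-Nd3 pair had 1 over 345 bases. The mt-Cytb copy on chromosome 4 differed at 81 of 1142 aligned bases, 5 of them in the stretch shown, and no window of 50 bases was shared. The counts on the copies themselves were low, with a mean of 15.6 reads on Gm28661, 47.7 on Gm28438 and 0.9 on Gm11410.

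**Figure D2:**
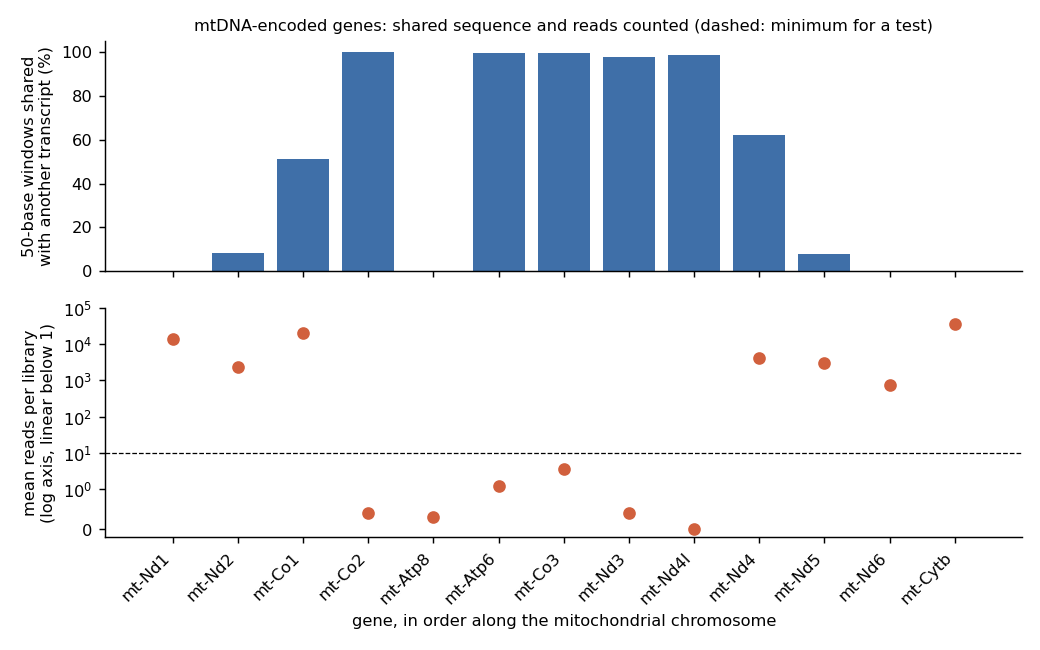
The 13 mtDNA-encoded genes in their order along the mitochondrial chromosome, with the percentage of 50-base windows shared with another annotated transcript (upper bars) and the mean reads per library (lower points, log axis, linear below 1; the dashed line is the minimum of 10 reads for a test). The 6 genes from mt-Co2 to mt-Nd4l have at most 3.6 reads, and 5 of them share at least 98.0% of their windows.

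The levels of the mtDNA-encoded genes, each a single exon, were compared per kilobase on 2 scales, of exon and of sequence in 50-base windows found in no other transcript (unique kb). In controls mt-Cytb, the cytochrome b of complex III, was the highest on both, at 12295 ± 1273 CPM per kb of exon and 12846 ± 1330.3 per unique kb (SD, n = 7). Per kb of exon, mt-Nd1 (5470.5 ± 385) and mt-Co1 (5033 ± 379.7) followed and overlapped, whereas per unique kb mt-Co1 stood at 10637 ± 803 and mt-Nd1 at 5766 ± 405, without overlap. mt-Nd4 was next on both, at 1027 ± 110.4 and 2819 ± 303. Lower were mt-Nd2, mt-Nd5 and mt-Nd6, at 912 ± 113, 658 ± 29.7 and 553 ± 71.0 per unique kb. Where in these genes the counted reads lay is not known from the counts, so which scale fits mt-Co1 and mt-Nd4 better was not tested. Nuclear genes are given per kb of merged exons. With the unique windows of 1 transcript per gene as the length, the highest nuclear genes were others: Cox4i1 in complex IV, Ndufa4 in complex I, Atp5o in complex V and Ndufaf2 among the assembly factors, in place of Cox6a1, Ndufa2, Atp5k and Ndufaf8. Ranks among nuclear genes thus depend on the length used.

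None of the 7 tested mtDNA-encoded genes passed the test. The log2 fold changes were 0.31 ± 0.17 (SE) for mt-Nd2, 0.29 ± 0.24 for mt-Nd6, 0.23 ± 0.16 for mt-Nd4, 0.05 ± 0.14 for mt-Nd5, −0.04 ± 0.12 for mt-Nd1, −0.13 ± 0.12 for mt-Co1 and −0.22 ± 0.13 for mt-Cytb. Adjusted p values lay between 0.403 (mt-Nd2) and 0.922 (mt-Nd1). The 3 cKO libraries differed widely from each other. mt-Cytb was at 9667, 11965 and 14579.8 CPM in cKO 1, 2 and 3 and at 10977 to 15414 CPM in controls, with a median of 14337. mt-Co1, the catalytic subunit of complex IV, was at 5934, 7294 and 8046 CPM against 6506 to 8281, with a control median of 7895. Both genes were lowest of all 10 libraries in cKO 1, the library with the highest erythroid markers. They were highest of all libraries in control 5, which came next in these markers, at 15414 and 8281 CPM. The part of the erythroid markers in the values of both genes was not tested. Without the filter on low counts, edgeR called mt-Cytb lower (−0.24, adjusted p 0.00338), where the main fit gave an adjusted p of 0.432. Without cKO 1 the log2 fold change of mt-Cytb was −0.088 with an adjusted p of 0.806, and that of mt-Co1 was −0.023.

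The complex I genes of mtDNA were highest in cKO 2. mt-Nd6, the subunit encoded on the opposite strand from the others, was at 185, 537 and 234 CPM in cKO 1, 2 and 3 and at 221 to 302 CPM in controls, with a median of 271. mt-Nd2 was at 708, 1425 and 936 CPM against 671 to 938 with a median of 859, and mt-Nd4 at 1268, 2267 and 1454 CPM against 1226 to 1604 with a median of 1474. For mt-Nd5 the cKO libraries had 808, 1471 and 1079 CPM, and the controls 1008 to 1133 with a median of 1101. In each of these genes cKO 2 stood above every control and the other cKO libraries did not, and in mt-Nd5 and mt-Nd6 cKO 1 stood below every control. mt-Nd1 was at 3936, 5830.4 and 5559 CPM against 4675 to 5536 CPM, with a control median of 5414, so that both cKO 2 and cKO 3 lay above the controls and cKO 1 below. The amount of mt-Nd6 relative to mt-Cytb was 4.48% in cKO 2, and the other cKO libraries lay within the range of the controls, 1.59% to 2.08%. Without cKO 2 the log2 fold change of mt-Nd6 was −0.33 and that of mt-Nd2 was −0.02. The positive signs of both thus rest on that library.

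Summed over the members, mtDNA-encoded genes took 22507, 30791 and 31890 CPM in cKO 1, 2 and 3, and 25578 to 33059 CPM in controls, with a median of 31652. Nuclear subunits took 27155, 27092 and 31563 CPM, against 22749 to 28748 CPM with a median of 26644. Both sums overlapped between the groups, with cKO 1 below all controls in the first and cKO 3 above all controls in the second. The ratio of the mtDNA-encoded to the nuclear sum was 0.917 to 1.42 in controls and 1.14 and 1.01 in cKO 2 and cKO 3, while cKO 1 lay below the controls. The mtDNA-encoded sum rests on the 7 genes that could be counted, none of them of complex V, as the other 6 had almost no reads. The sum and the ratio are thus no measure of all mtDNA-encoded RNA. The median log2 fold change was 0.05 over the 7 mtDNA-encoded genes and 0.15 over the 76 nuclear subunits, a difference of −0.10. Between control libraries the same difference of medians varied with an SD of 0.19. This SD is that of single libraries and not the error of a difference between groups. Without cKO 2 the medians were −0.17 and 0.15, and without cKO 1 they were 0.24 and 0.18, so that the order of the genomes turned with the library left out. No difference between the tested genes of the genomes was therefore seen that kept its sign with each library left out.

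**Figure D3:**
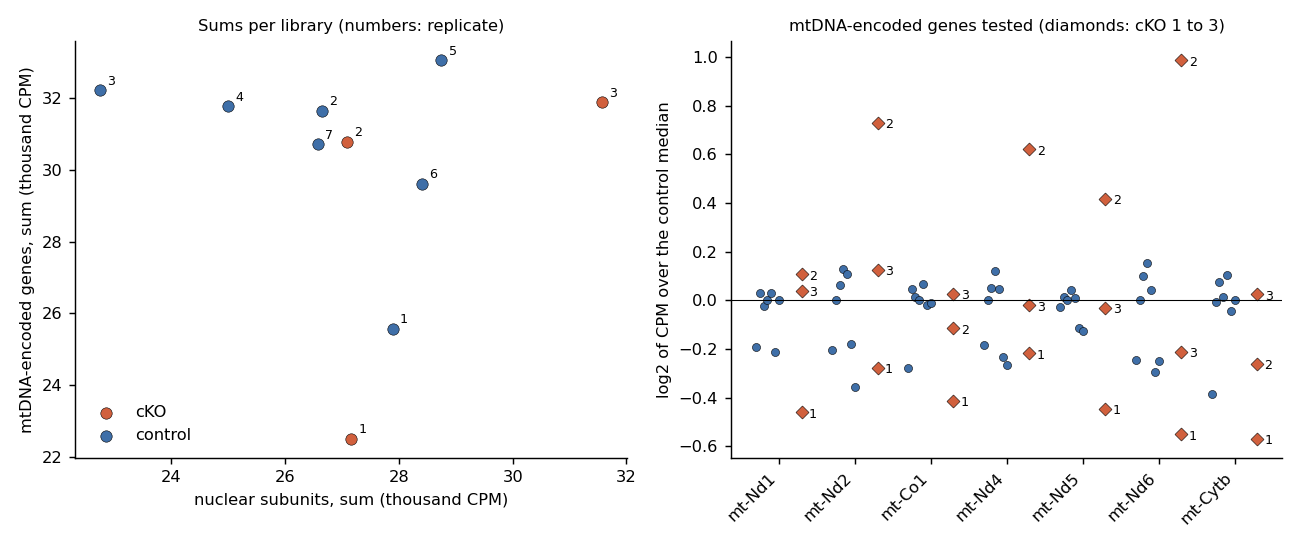
Left, the summed CPM of mtDNA-encoded genes against that of nuclear subunits, 1 point per library with its replicate number. Right, log2 of the CPM of each tested mtDNA-encoded gene over the control median, with controls as circles and cKO 1 to 3 as numbered diamonds. The groups overlap on the left, and on the right cKO 2 is the highest library for all 5 complex I genes while cKO 1 is the lowest for mt-Nd1, mt-Nd5, mt-Nd6, mt-Co1 and mt-Cytb.

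Complex I, the NADH dehydrogenase, has the most nuclear subunits, and 29 of its 37 tested members lay above 0, with a median log2 fold change of 0.11 and 0 calls. The 7 nuclear subunits of its catalytic core, which carry the flavin and the iron-sulphur clusters, had a median of 0.01, and the 30 subunits outside the core a median of 0.13. Ndufb6, an accessory subunit of the membrane arm, was at 166, 208 and 214 CPM in cKO 1, 2 and 3 and at 123 to 170.0 CPM in controls, with a median of 147. Only cKO 1 lay within the range of the controls. Its log2 fold change was 0.43 ± 0.15 (SE), with an unadjusted p of 0.0102 and an adjusted p of 0.141. Ndufs7, a core subunit that holds the last iron-sulphur cluster before ubiquinone, was at 373, 279 and 338 CPM against 182 to 321 CPM with a median of 251, a log2 fold change of 0.41 ± 0.17 with an adjusted p of 0.224. Ndufab1, the mitochondrial acyl carrier protein, was at 93.4, 86.3 and 121 CPM against 67.6 to 91.4 CPM with a median of 77.8, a log2 fold change of 0.37 ± 0.16 with an adjusted p of 0.251. Each of these 2 genes overlapped the controls in 1 cKO library. Ndufa2 had the highest level per kilobase of exon in the nuclear part of the complex, at 638 ± 69.4 CPM per kb in controls (SD, n = 7). The log2 fold change of Ndufa2 was 0.05 ± 0.13.

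The lowest log2 fold changes among the nuclear subunits of complex I were those of Ndufa8, at 179.8, 160.3 and 208 CPM against 183 to 220.1 CPM, and of Ndufs1, the largest core subunit, at 56.0, 102 and 108 CPM against 75.9 to 109.9 CPM. Their log2 fold changes were −0.16 ± 0.13 and −0.14 ± 0.20, and neither gene passed the test. Ndufb1-ps, which the annotation holds as a non-coding RNA, was the only tested member that is not protein coding and had a log2 fold change of 0.15 ± 0.16. The 8 assembly factors of complex I (Ndufaf genes), which help to build the complex without staying in it, had a median of −0.03, and 2 of 8 lay above 0. Ndufaf1 was at 25.0, 28.4 and 37.3 CPM in cKO and at 25.4 to 46.4 CPM in controls, a log2 fold change of −0.21 ± 0.25 with an adjusted p of 0.742. Ndufaf6 followed with −0.13 ± 0.27 and Ndufaf8, the factor with the highest level per kilobase of exon (62.7 ± 13.1 CPM per kb in controls, SD, n = 7), with −0.10 ± 0.23. The median standard error of the 8 factors was 0.21, against 0.14 for the nuclear subunits of the complex.

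Complex II, succinate dehydrogenase, also takes part in the citric acid cycle, and all 4 of its genes lay above 0 with a median of 0.20 and 0 calls. Sdhc, a membrane anchor of the complex, was at 222, 259.6 and 277 CPM in cKO and at 184 to 225 CPM in controls, with a median of 196, and only cKO 1 lay within the controls. Its log2 fold change was 0.36 ± 0.13, with an unadjusted p of 0.0131 and an adjusted p of 0.161. Sdhb, the iron-sulphur subunit, was at 578, 464 and 674 CPM against 435 to 541 CPM, a log2 fold change of 0.24 ± 0.13 with an adjusted p of 0.382. It had the highest level of the complex per kilobase of exon, 216 ± 19.3 CPM per kb in controls (SD, n = 7). Sdha, the flavoprotein, and Sdhd, the second anchor, had log2 fold changes of 0.16 ± 0.17 and 0.14 ± 0.15. For all 4 genes the interval excluded a 2-fold change, and for 3 a 1.5-fold change.

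Complex III, the cytochrome bc1 complex, held 2 of the 4 tested members in which every cKO library lay above every control, an arrangement that 3.32% of all genes tested had in this direction and 2.68% in the other. No tested member had all cKO libraries below the controls. Uqcrq, a small subunit near the ubiquinone-binding site, had the smallest p of all members. It was at 509.6, 537 and 573 CPM in cKO and at 327 to 449 CPM in controls, with a median of 428. The log2 fold change was 0.40 ± 0.13 (95% interval 0.13 to 0.66), with an unadjusted p of 0.00564 and an adjusted p of 0.103. In a fit that also held each library's fraction of reads off genes, the adjusted p of Uqcrq was 0.0489. Uqcr10, another small subunit, was at 340.3, 343 and 357 CPM against 201 to 334 CPM with a median of 265, a log2 fold change of 0.39 ± 0.14 with an adjusted p of 0.168. Of the core proteins, Uqcrc1 was at 625, 470.0 and 629 CPM against 539 to 744 CPM, and Uqcrc2 at 215, 245 and 308 CPM against 231 to 319 CPM, each with a log2 fold change of −0.09 ± 0.14. Uqcrfs1, the Rieske iron-sulphur protein, had a log2 fold change of 0.21 ± 0.12, and Uqcr11, the highest nuclear gene of the complex per kilobase, with 538 ± 72.6 CPM per kb of exon in controls (SD, n = 7), had 0.17 ± 0.14.

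Complex V, the ATP synthase, had 14 of 16 tested members above 0, with a median of 0.15 and 0 calls. In its catalytic F1 part, the larger subunits Atp5a1, Atp5b and Atp5c1 had log2 fold changes of −0.10 ± 0.14, 0.04 ± 0.15 and −0.01 ± 0.13. Atp5e, the small epsilon subunit of F1, was at 411, 426 and 443 CPM against 265 to 433 CPM in controls, a log2 fold change of 0.27 ± 0.14 with an adjusted p of 0.364. The peripheral stalk (Atp5f1, Atp5h, Atp5j, Atp5o) ranged from 0.06 to 0.24. Atp5j2, subunit f of the membrane part, was at 439.8, 442 and 449.7 CPM in cKO and at 296 to 401 CPM in controls, with a median of 351. All cKO libraries lay above the controls and within a narrow range, with a log2 fold change of 0.33 ± 0.12 and an adjusted p of 0.163. Atp5k, at 394 ± 33.4 CPM per kb in controls (SD, n = 7) the highest of the complex per kilobase of exon, had a log2 fold change of 0.06 ± 0.13.

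The c subunits of the rotor ring are identical as mature proteins but come from 3 nuclear genes. Atp5g3 was at 585, 566 and 692 CPM in cKO and at 429 to 546 CPM in controls, with a median of 506, so that all cKO libraries lay above the controls. Its log2 fold change was 0.34 ± 0.12, with an adjusted p of 0.158. Atp5g1 and Atp5g2 had log2 fold changes of 0.15 ± 0.14 and 0.30 ± 0.20. Of the reads on the 3 genes, Atp5g1 took at most 28.2% in cKO and at least 28.3% in controls, and Atp5g3 took 65.3% to 67.4% against 60.8% to 66.0%. The shares of Atp5g1 did not overlap but nearly touched, and those of Atp5g3 overlapped. Atp5g2 shares 87.4% of its 50-base windows with other transcripts, so its counts are uncertain, as are those of Atp5o, Cox7c and Atp5l, which share more than 50% of theirs.

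**Figure D4:**
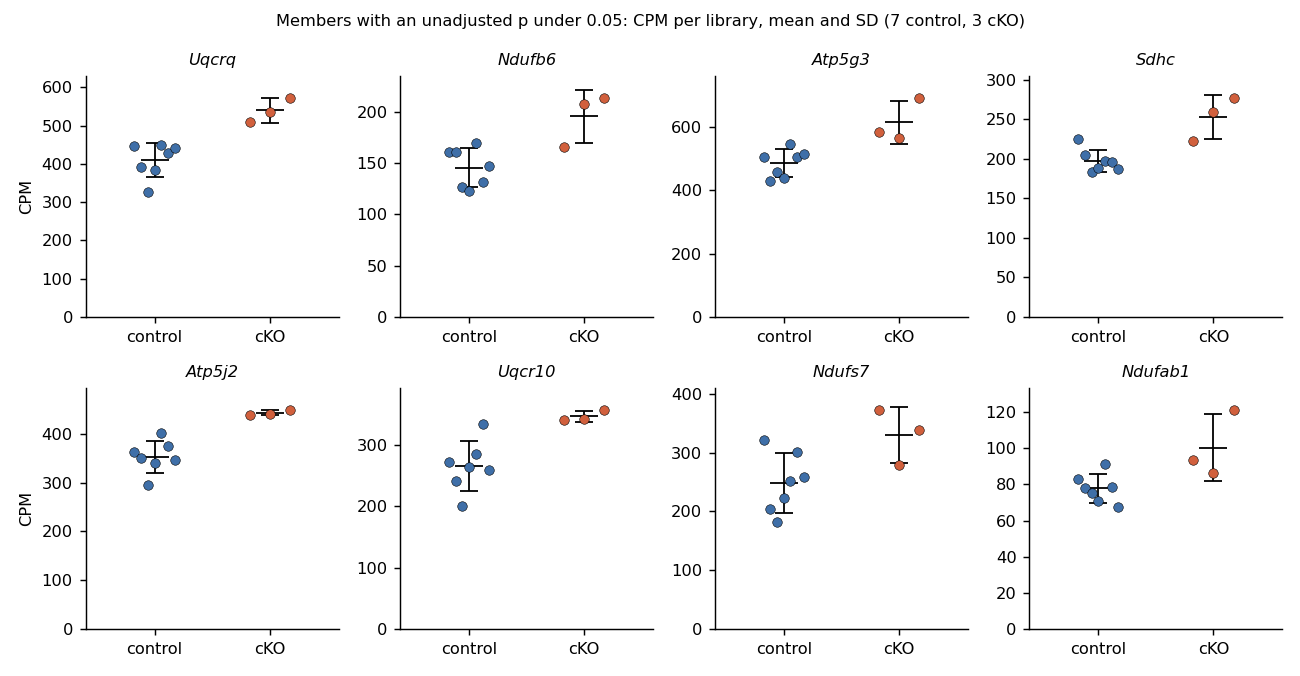
CPM per library of the 8 members with an unadjusted p under 0.05, 7 controls and 3 cKO libraries each, with the mean and SD as bars. All 8 have a higher mean in cKO, and in Uqcrq, Atp5g3, Atp5j2 and Uqcr10 every cKO library lies above every control.

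Complex IV, cytochrome c oxidase, had 0 calls, and the intervals of all 11 tested nuclear subunits lay within 1.5-fold, with a median log2 fold change of 0.11. The highest values were those of Cox5b (0.23 ± 0.15), Cox6c (0.21 ± 0.14) and Cox8a (0.20 ± 0.14), with adjusted p values of 0.475 to 0.502. Cox6c was at 331, 334 and 346 CPM in cKO and at 239 to 350.2 CPM in controls, and the libraries of the other genes overlapped in the same way. Cox4i1, the subunit through which ATP regulates the enzyme, was at 1869.9, 1890.2 and 2118 CPM against 1763 to 2423 CPM, a log2 fold change of −0.08 ± 0.12. Cox6a1 had the highest level of all nuclear members per kilobase of exon, at 1454 ± 118 CPM per kb in controls (SD, n = 7). The values of Cox6a1 were 1018, 1096 and 1196 CPM in cKO and 889 to 1129 CPM in controls, a log2 fold change of 0.11 ± 0.11.

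Several subunits of complex IV exist as a common form and a form of particular tissues, and 2 of the tissue forms had more reads in every cKO library than in any control. None of the common forms passed the test, which held Cox4i1 and Cox6a1 as above, Cox6b1 (0.18 ± 0.14), Cox7a2 (0.08 ± 0.12), Cox7a2l (−0.07 ± 0.15), Cox7b (0.06 ± 0.14) and Cox8a. The tissue forms had a mean under 10 reads and were not part of the main test. Cox6a2, the form of heart and skeletal muscle, had 11, 9 and 9 reads in cKO 1, 2 and 3 and 0 reads in each of the 7 controls. Pooled over the group this is 3.69 CPM in cKO, at least 23.8-fold above the limit of 0.155 CPM that 3 reads over all controls would give. Cox6b2, the form of testis, had 24, 12 and 30 reads in cKO and 0, 2, 3, 3, 4, 1 and 6 in controls 1 to 7, or 8.40 against 0.982 CPM, an 8.55-fold difference. The groups did not overlap for either gene, an arrangement found in this direction in 1.66% of the 14986 genes with reads that were not tested and in the other in 0.167%. Those 14986 genes include ones with too few reads to show it, and the other direction needs a read in all 7 controls. The share among genes with as many reads as these 2 was not computed. In an edgeR fit without the filter on low counts, in which 3.62% of 26537 genes were called, the adjusted p was 2.79e-05 for Cox6a2 and 1.00e-05 for Cox6b2. That fit also took mt-Cytb, whose groups overlapped, from an adjusted p of 0.432 to 0.00338 at nearly the same log2 fold change. The p values of that fit thus depended on the filter also in a gene with many reads, and why was not tested. Reads without molecular identifiers are not independent molecules, so the limit above covers counting error only.

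Both genes lie on chromosome 7, which also holds Cdkn1c and the MADM cassettes: Cox6a2 at chr7:128205435-128206387 and Cox6b2 at chr7:4751792-4753094 of GRCm38, both on the minus strand. Of the other 10 members on that chromosome, 5 were tested and 0 were called, and the groups overlapped in all 10. Cox6a2 lies inside Itgad, which is on the opposite strand and had 1 read in cKO 2 and 0 elsewhere. The neighbouring gene 4931431B13Rik, on the same strand as Cox6a2 and not overlapping it, had 5 reads in cKO 1 and 0 elsewhere. The nearest expressed neighbour of Cox6b2 was Kmt5c, with a log2 fold change of −0.25 and an adjusted p of 0.745. The part of the chromosome, of the higher Cajal-Retzius markers and of other cell types in the reads of both genes was not tested.

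The remaining tissue forms gave no such difference. Cox4i2, the form of lung, had 5, 0 and 10 reads in cKO and 0 to 10 in controls, Cox7a1 had 0, 2 and 1 against 0 to 8, and Cox7b2 had 2, 0 and 0 against 0 to 2. Cox8c had 4 reads, all in cKO 3, and Cox8b had 0 in all libraries, which allows up to 3 reads over the controls, or 0.155 CPM. Ndufa4l2, the hypoxia-induced relative of Ndufa4, had 1, 0 and 0 reads against 0 to 4, whereas Ndufa4 itself was at 557, 748 and 819 CPM against 479.7 to 766 CPM, a log2 fold change of 0.20 ± 0.15. Ndufa4 is grouped with complex I by its symbol, although its protein is a part of complex IV. Of the 27 members not tested, 6 are encoded in mtDNA, 12 are not protein coding and 9 are nuclear protein-coding genes, and the groups were separate in Cox6a2 and Cox6b2 alone.

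**Figure D5:**
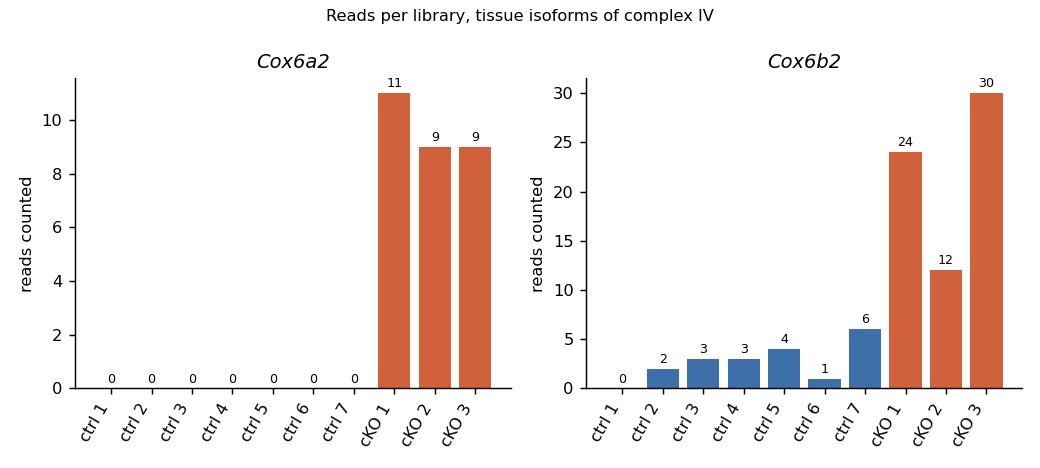
Reads counted on Cox6a2 (left) and Cox6b2 (right) in each control (blue) and cKO (orange) library. Cox6a2 has 9 to 11 reads in the cKO libraries and 0 in every control, and Cox6b2 has 12 to 30 against 0 to 6.

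Many nuclear OXPHOS genes are known to share promoter elements bound by NRF1 and by GABP, a factor of the ETS family. RefSeq promoters of GRCm38.p6, from 250 bases before to 50 bases after the start, were found for 69 of the 84 tested nuclear protein-coding members, with 74 promoters in all. An NRF1 motif, the palindrome of 10 letters that is the first run of capitals in the sequence below, stood in 7 of them (9.46%), against 0.971% of all 32851 promoters. The letters CCGGAAG, a core ETS motif, were found on either strand in 17 (23.0%), against 8.86% of all promoters. The motifs share no match position in the sequence shown, and a match does not show binding. The promoter of Cox6a1, the most abundant nuclear member per kilobase of exon, holds both and is shown for that reason, from chr5:115348909-115349208 on the minus strand with the matches in capitals.
Cox6a1: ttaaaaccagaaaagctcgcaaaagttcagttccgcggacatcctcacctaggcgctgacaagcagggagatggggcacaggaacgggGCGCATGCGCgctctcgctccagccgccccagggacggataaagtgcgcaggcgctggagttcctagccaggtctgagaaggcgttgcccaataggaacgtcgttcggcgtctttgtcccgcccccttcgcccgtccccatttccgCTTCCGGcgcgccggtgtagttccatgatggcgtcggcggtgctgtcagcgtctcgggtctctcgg
Of the genes with all cKO libraries above the controls, Atp5g3, Atp5j2 and Uqcr10 had a promoter in the table and held neither motif.

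Genes that serve the same pathway outside the rule gave 0 calls in each of 7 lists, where 3.15% of all genes tested were called. Most lists are short, so at that share 0 calls says little about a single list. Regulators of mitochondrial biogenesis had 7 of 12 genes tested. Ppargc1a, the coactivator PGC-1α, was at 12.5, 14.6 and 15.7 CPM in cKO and at 2.52 to 9.63 CPM in controls, with a median of 6.40. All cKO libraries lay above the controls, and its log2 fold change of 1.14 ± 0.34 had an adjusted p of 0.0795. Nrf1, the factor named above, was at 21.2, 39.8 and 33.1 CPM in cKO, against a lowest control of 38.2 and a control median of 45.7 CPM, a log2 fold change of −0.51 ± 0.22 with an adjusted p of 0.250. The values of these 2 regulators thus lay on opposite sides of 0.

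Genes of mtDNA maintenance, transcription and RNA handling had a median log2 fold change of −0.17 over 21 genes. Twnk, the helicase that unwinds mtDNA for replication, was at 37.4, 36.2 and 45.4 CPM in cKO and at 48.6 to 70.3 CPM in controls, with a median of 59.7. All cKO libraries lay below the controls, with a log2 fold change of −0.62 ± 0.19 and an adjusted p of 0.0898. By DESeq2 its adjusted p was 0.0314. Lrpprc, which stabilises mitochondrial mRNA, was at 15.5, 41.0 and 20.4 CPM against 37.4 to 42.7 CPM, a log2 fold change of −0.66 ± 0.26 with an adjusted p of 0.199. Its value in cKO 2 lay within the controls, and without that library its log2 fold change was −1.19 with an adjusted p of 0.0145, but without cKO 1 it was −0.38 with an adjusted p of 0.498. The 74 tested mitochondrial ribosomal proteins, which translate the mtDNA-encoded subunits, had a median of 0.07, and the smallest p was that of Mrps6, at 97.1, 102 and 143 CPM against 68.3 to 90.6 CPM (0.47 ± 0.16, adjusted p 0.135), followed by Mrpl54 (0.43 ± 0.18).

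Assembly factors of complexes II to V had a median of −0.10 over 32 genes, with the smallest p in Coa5 (−0.74 ± 0.30) and Coa4 (−0.86 ± 0.36), both of complex IV. Coa5 was at 13.5, 62.2 and 45.4 CPM against 52.4 to 81.3 CPM, and without cKO 2 its log2 fold change was −1.23 with an adjusted p of 0.0423, but without cKO 1 it was −0.29 with an adjusted p of 0.548. The 13 genes of cytochrome c, cytochrome c1 and ubiquinone synthesis had a median of −0.03, with Coq7 at 0.52 ± 0.19 and Coq8b at −0.65 ± 0.31. In the citric acid cycle, Suclg2, a subunit of succinyl-CoA ligase, had a log2 fold change of 0.90 ± 0.37. The median over the 24 tested genes of the cycle was −0.10. In glycolysis the median over 19 genes was 0.03, with Pfkp, a phosphofructokinase, at 0.88 ± 0.30 (adjusted p 0.127, or 0.47 with an adjusted p of 0.512 without cKO 1) and Ldhb, a lactate dehydrogenase subunit, at −0.35 ± 0.14 (adjusted p 0.212).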

How the data were processed

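RNA-seq counts of 10 libraries were used. After merging technical replicates, the authors mapped to GRCm38 with STAR 2.5.0c and deposited raw counts of uniquely aligned reads over the genes of GENCODE M16. The read length is not given in the sources used here. The column of counts that ignores the strand was used. Symbols, positions and transcripts came from GENCODE M21, where 50604 identifiers matched with their version, 2670 without it and 105 did not. The libraries of a group differed from each other beyond counting error (chi-square per degree of freedom 4.98 to 23.1), so none was a duplicate.

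Genes that averaged 10 or more reads were tested with the quasi-likelihood test of edgeR 4.0.16 (TMM, design with genotype alone, R 4.3.3), and p values were adjusted over all 11551 genes by the Benjamini-Hochberg method. The procedure was tested on simulated data. DESeq2 1.42.0 was an alternative, as were other scalings, filters, covariates and offsets and each library left out. Similar sequences were found with blastn 2.17.0 (at least 100 bases). Lengths are those of merged exons, except per unique kb, where the unique windows of 1 transcript per gene were counted.

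The members and lists were chosen with earlier results of these data known. Values are named for the mtDNA-encoded genes, for the 3 nuclear genes with the smallest p and the gene with the highest level per kilobase in each complex, for isoform families, and for genes called or, failing that, the 2 with the smallest p in each list, of which 1 is not reported here. Atp5s, Ndufa8, Ndufs1, Atp5a1, Atp5b, Atp5c1, Uqcrc1, Uqcrc2, Sdhd and the neighbours of Cox6a2 and Cox6b2 were named after their values had been seen.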

Additional observations from a re-analysis of the deposited data

Results flagged for a closer look

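Of 74 quantities examined over the 7 controls, 4 had a control far from the others by Dixon's test, where chance gives about 1 in 20. Control 1 was low for mt-Cytb, at 10977 CPM against 13901 to 15414 CPM in the other controls, and for mt-Co1, at 6506 CPM against 7790 to 8281 CPM. In the same library mt-Nd5 was 9.84% of mt-Cytb, against 7.03% to 7.82% in the other controls. Sdha was high in control 6, at 242 CPM against 131 to 175 CPM.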

How the results depend on the processing

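No OXPHOS gene was called under most alternatives. Without the filter on low counts 2 were called higher (Cox6a2, Cox6b2) and 1 lower (mt-Cytb), and with the fraction of reads off genes as a covariate 1 was called higher (Uqcrq). In the lists, a gene was called in mtDNA maintenance by DESeq2 (1, Twnk) and in glycolysis without the filter (1, Pfkp) or with a length offset (1, Ldhb). Leaving out single libraries gave 0 to 1 calls in the lists of assembly factors, mtDNA maintenance and the citric acid cycle. Across such fits the difference of medians between the genomes ranged from −0.32 to 0.054, the mtDNA-encoded median from −0.17 to 0.24 and that of its complex I genes from −0.15 to 0.39. The sets split by reads off genes were chosen after seeing the data, and the lower set has a lone cKO library, assumed to vary like the controls. In it the nuclear medians were 0.22, 0.32 and 0.31 for complexes I, II and V. The causes were not tested.

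Of 51 named genes with a test, 33 kept their sign in all alternatives. The log2 fold changes that turned were as follows. In the set with at most 10% of reads off genes they were 0.12 (mt-Nd1), 0.12 (mt-Cytb), 0.080 (mt-Co1), −0.027 (mt-Nd6), −0.012 (Sdha), 0.46 (Ndufaf6), 0.00071 (Cox4i1) and 0.093 (Cox7a2l). In the other set they were −0.0042 (Ndufa2), 0.20 (Ndufaf8) and −0.040 (Cox7b). The covariate gave 0.032 (Ndufaf8), the GC offset −0.014 (mt-Nd5), and the length offset −0.049 (Ndufa2), −0.046 (Atp5k), −0.020 (Cox7a2) and −0.029 (Cox7b). Ranges over libraries left out were −0.15 to 0.12 (mt-Nd1), −0.022 to 0.51 (mt-Nd2), −0.069 to 0.39 (mt-Nd4), −0.21 to 0.24 (mt-Nd5), −0.33 to 0.57 (mt-Nd6), −0.021 to 0.15 (Ndufa2), −0.37 to 0.025 (Ndufaf6), −0.34 to 0.054 (Ndufaf8), −0.21 to 0.0033 (Cox7a2l) and −0.020 to 0.16 (Cox7b).

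Embryos of the groups share only replicate numbers. Deviations of same-numbered libraries correlated at 0.04, −0.10 and −0.21, so the numbers do not pair them. With the replicate block 0 members and 213 genes were called, against 364 without it. The block gave −0.015 for mt-Nd5 and 0.0027 for Cox4i1. The block with a length offset gave medians of −0.12 (mtDNA-encoded), −0.052 (its complex I genes) and −0.060 (nuclear complex IV), and −0.12 (mt-Nd5), −0.052 (mt-Nd6), −0.12 (Ndufa2), −0.063 (Cox6a1), −0.067 (Atp5k), −0.00023 (Cox6b1), −0.094 (Cox7a2) and −0.077 (Cox7b).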

Other observations

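Outside the rule, the ribosomal RNAs of mtDNA were looked at after the values of their neighbours had been seen. mt-Rnr1, the small ribosomal RNA, was at 6835, 3299 and 2732 CPM in cKO 1, 2 and 3 and at 1744 to 2502 CPM in controls, with a median of 2365. All cKO libraries lay above the controls, and its log2 fold change was 0.94 ± 0.20 with an adjusted p of 0.0157 by edgeR. Without cKO 1 it was 0.42 ± 0.15 with an adjusted p of 0.149, and without any other library it was 0.87 to 1.18. mt-Rnr2, the large ribosomal RNA, was at 16528, 13371 and 14150.0 CPM against 10162 to 13989 CPM, a log2 fold change of 0.36 ± 0.11 with an adjusted p of 0.108, or 0.0475 without control 6. Both were highest in cKO 1, the library in which the messengers mt-Cytb and mt-Co1 were lowest.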
